A study of Homo sapiens with 6 samples.

Results

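HDAC1, HDAC2 and HDAC3 encode class I histone deacetylases, the enzymes that the HDACis romidepsin and vorinostat block. Their loci were taken from the deposited H3AcK9 ChIP-seq peak lists as 3 windows, each the gene in hg19, with ends known to 1 kb, and 10 kb on either side. HDAC8, the other class I gene, was left out because neither romidepsin list holds a peak on chromosome X, and no measured value chose among the 3 that remain. They span 62 kb at HDAC1 on chromosome 1 (gene 32757 to 32799 kb, plus strand), 55 kb at HDAC2 on chromosome 6 (gene 114257 to 114292 kb, minus strand) and 36 kb at HDAC3 on chromosome 5 (gene 141000 to 141016 kb, minus strand). They held 38 of the 376666 peaks of untreated cells, 104 of 912311 and 96 of 913199 after vorinostat, and 112 of 896878 and 118 of 884242 after romidepsin.

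SKOV3WT is an established human ovarian carcinoma cell line. Cells were left untreated or exposed for 24 h to 1 times the IC50 of vorinostat or romidepsin, and chromatin carrying histone H3 acetylated at lysine 9 (H3AcK9) was pulled down for sequencing. Each condition had 1 ChIP sample. Per the labels, the sequencing company divided each treated sample, which gave 2 peak lists per drug. Elsewhere the study calls them independent experiments. They are counted here as 1 sample and not as replicates. A fold change or factor is the average of the 2 lists over the untreated value, and no difference between conditions carries a test or a p-value. Whether the cells of this culture carry ovarian carcinoma markers was not examined here, since peak lists hold no expression values and gene positions in hg19 were at hand for these 3 loci only.

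H3AcK9 marks the promoters of active genes and is removed by deacetylases. HDAC1 and HDAC2 are close relatives that act together as the catalytic subunits of the SIN3, NuRD and CoREST repressor complexes. HDAC3 works apart from them, as the catalytic subunit of the NCoR and SMRT corepressor complexes. Vorinostat is a hydroxamic acid that inhibits several HDAC classes. Romidepsin is a cyclic depsipeptide prodrug whose released thiol binds the zinc of the active site, with a preference for class I. The peaks examined here lie on the genes of these enzymes and say nothing of the enzymes' activity.

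The promoters are shown first, because a wide untreated peak lay across the 5′ end of each gene. They are the RefSeq promoters of GRCh38.p14, from 250 bases before to 50 after the start site, read 5′ to 3′ on the gene's strand. Capitals mark GC boxes, the letters GGGCGG or, on the other strand, CCGCCC, where overlapping matches run together. HDAC1 lies at chr1:32291833-32292132 (plus strand), HDAC2 at chr6:113971099-113971398 (minus strand) and HDAC3 at chr5:141636800-141637099 (minus strand).
HDAC1: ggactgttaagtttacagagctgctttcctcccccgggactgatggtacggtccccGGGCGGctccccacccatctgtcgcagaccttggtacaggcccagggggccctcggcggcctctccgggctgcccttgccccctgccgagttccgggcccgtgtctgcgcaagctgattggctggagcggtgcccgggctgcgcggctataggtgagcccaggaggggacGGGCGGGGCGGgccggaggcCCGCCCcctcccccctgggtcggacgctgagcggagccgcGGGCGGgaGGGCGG
HDAC2: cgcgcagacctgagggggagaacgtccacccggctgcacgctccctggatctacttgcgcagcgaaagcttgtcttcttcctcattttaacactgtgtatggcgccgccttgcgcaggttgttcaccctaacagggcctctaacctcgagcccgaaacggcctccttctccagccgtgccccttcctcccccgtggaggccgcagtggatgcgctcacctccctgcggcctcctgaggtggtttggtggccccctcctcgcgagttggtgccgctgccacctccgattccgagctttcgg
HDAC3: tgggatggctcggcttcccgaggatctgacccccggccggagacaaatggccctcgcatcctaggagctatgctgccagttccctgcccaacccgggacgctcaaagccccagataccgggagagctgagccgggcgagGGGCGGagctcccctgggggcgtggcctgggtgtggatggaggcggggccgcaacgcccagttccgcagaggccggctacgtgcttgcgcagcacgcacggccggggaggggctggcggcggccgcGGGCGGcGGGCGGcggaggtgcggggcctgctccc
The HDAC1 promoter held 6 GC boxes, HDAC3 held 3 and HDAC2 held 0. Of 35116 RefSeq promoters, 45.0% held at least 1 and 15.8% at least 3. CpG dinucleotides numbered 28 at HDAC1, 24 at HDAC2 and 31 at HDAC3, against a median of 14 over all promoters. Fewer were held by 73.8, 66.1 and 79.3% of promoters, so such counts are common. A CCAAT box (CCAAT or ATTGG), present in 34.6% of promoters, was found once, at HDAC1. The letters TATAAA or TTTATA, present in 11.5% of promoters, were not found in these 3 windows. A match describes the letters and not a bound factor.

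In untreated cells, a single wide peak crossed each 5′ end. It lay at chr1:32753428-32759111 at HDAC1, was 5684 bp wide and ran from -3573 to 2111 bp, counted from the 5′ end into the gene. At HDAC2 it lay at chr6:114288774-114295228, was 6455 bp wide and ran from -3228 to 3227 bp. At HDAC3 it lay at chr5:141012066-141018941, was 6876 bp wide and ran from -2941 to 3935 bp. These 3 peaks were wider than 98.6, 99.0 and 99.1% of all untreated peaks. Since each reached more than 1 kb to both sides, the 300 bases of a promoter lay inside it wherever the 5′ end falls within the 1 kb rounding.

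**Figure D1:**
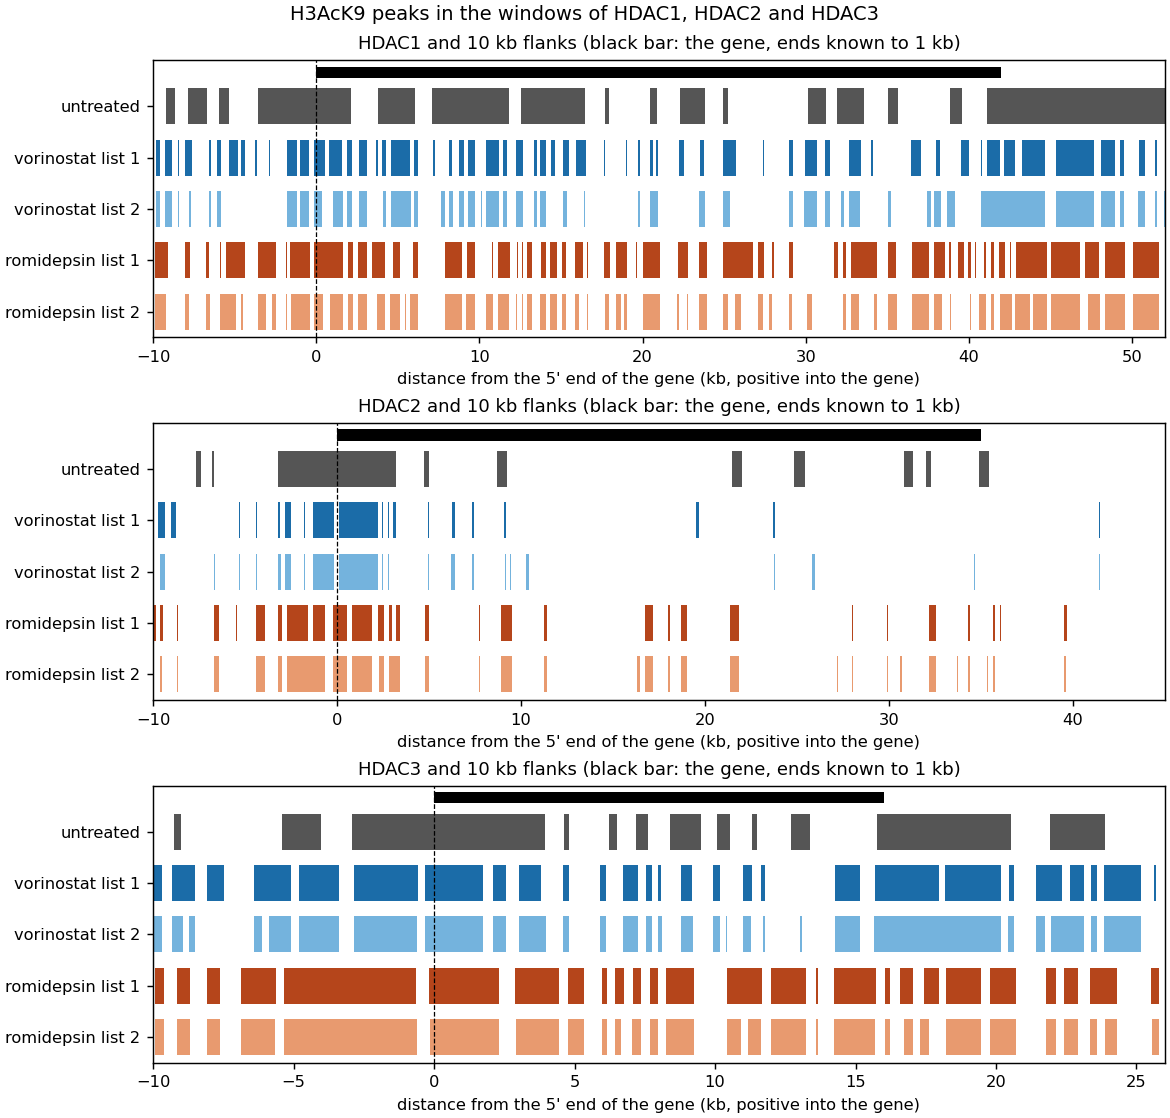
H3AcK9 peaks in the 5 lists over HDAC1, HDAC2 and HDAC3 with 10 kb flanks, drawn by distance from the 5′ end in kb, each coloured block being 1 peak and the black bar the gene. Untreated cells had 16, 10 and 12 peaks, wide at the 5′ ends, and the treated lists had between 19 and 60 narrower ones.

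Over the whole windows, with the 5′ end peaks included, the 3 loci differed in untreated cells. Peaks covered 58.7% of the HDAC1 window, 18.1% of the HDAC2 window and 51.7% of the HDAC3 window, while the median over 54320 tiles of 50 kb was 4.84%. HDAC1 had 5 untreated peaks of at least 2 kb, HDAC3 had 2 and HDAC2 had only that at its 5′ end. Of the 55 bins of 1 kb in the HDAC2 window, 34 held no covered base, against 12 of 62 at HDAC1 and 8 of 36 at HDAC3.

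The windows also take in neighbouring genes. In hg38, the 5′ end of MARCKSL1, which encodes a MARCKS-related actin-binding protein, lies 44150 bp downstream of that of HDAC1. In the hg19 lists, the widest untreated peak of the HDAC1 window, 11085 bp, ran from 41124 to 52209 bp. RELL2 starts head to head with HDAC3, at -101 bp in hg38. FCHSD1 overlaps the upstream flank of HDAC3 as well, with its 3′ end at -2453 bp. Upstream of HDAC1 are the 3′ end of LCK, which encodes a tyrosine kinase of T cells, at -5918 bp, and a Y RNA gene that starts at -5522 bp. DIAPH1, which encodes a formin that nucleates actin filaments, starts 17794 bp downstream of the 5′ end of HDAC3 in hg38, and the second wide untreated peak of that window ran from 15781 to 20532 bp in hg19. A long noncoding RNA gene on the other strand, ENSG00000228737, runs from 18435 to 10368 bp in hg38, across the 3′ end of HDAC3. The antisense gene HDAC2-AS2 starts inside HDAC2, 1447 bp from its 5′ end. No position was converted between builds. The RefSeq gene spans 41544 bp for HDAC1 and 15969 bp for HDAC3, close to the 42 and 16 kb used here. It spans 38121 bp for HDAC2 against 35 kb, so the end of HDAC2 is less certain than those of the others.

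After treatment, all 3 windows held more and narrower peaks. At HDAC1 there were 16 untreated peaks, then 58 and 47 after vorinostat, and 55 and 60 after romidepsin, which gave fold changes of 3.28 and 3.59. At HDAC2 there were 10, then 19 and 21 after vorinostat, and 31 and 30 after romidepsin, fold changes of 2.00 and 3.05. At HDAC3 there were 12, then 27 and 28, and 26 and 28, fold changes of 2.29 and 2.25. Every treated list held more peaks than the untreated list at each gene. The fold change passed 1.5 in 3 of 3 windows with either drug, but so it did in 85.9% of all tiles with an untreated peak after vorinostat and in 79.8% after romidepsin, so the rise in peak number is what most of the genome shows. Among the tiles with an untreated peak of at least 2 kb the shares were 91.7 and 95.6%.

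The lists differ in how finely they resolve peaks. The smallest gap between neighbouring peaks was 509 bp in the untreated list, 205 bp in the vorinostat lists and 201 bp in the romidepsin lists, and the narrowest peak was 127, 51 and 50 bp wide. To bring all lists to the untreated resolution, neighbours no more than 508 bp apart were joined and peaks under 127 bp dropped, which was decided with the data in view. The fold changes in peak number were then 1.47 and 1.38 at HDAC1, 0.70 and 1.20 at HDAC2, and 0.958 and 0.833 at HDAC3, for vorinostat and romidepsin. The rise thus passed 1.5 at none of the 3 genes, and at HDAC2 with vorinostat and HDAC3 with romidepsin both lists held fewer peaks than untreated cells. At HDAC3 the vorinostat lists held 12 and 11 joined peaks against 12.

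The covered length separated the 3 genes. At HDAC1, peaks covered 36416 bases without treatment, 24222 and 21993 with vorinostat, and 32326 and 28305 with romidepsin, factors of 0.635 and 0.832. At HDAC2 they covered 9966 bases, then 5485 and 5292, and 9189 and 9556, factors of 0.541 and 0.940. At HDAC3 they covered 18598 bases, then 20817 and 20231, and 23373 and 22205, factors of 1.10 and 1.23. All 4 treated lists lay below the untreated list at HDAC1 and HDAC2, and above it at HDAC3. At HDAC3 the vorinostat value turned with the flanks, to 0.882 without them, 0.936 with 5 kb and 0.993 with 20 kb, while romidepsin stayed above 1, at 1.37, 1.13 and 1.12.

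Read against the genome, 2 of 3 windows fell by more than 1.5 times after vorinostat, where 25.2% of the tiles with an untreated peak did, and 0 of 3 after romidepsin, where 29.3% did. With peaks as called, no window rose by more than 1.5 times with either drug, which 21.7% of the tiles did after vorinostat and 17.7% after romidepsin. By any amount, HDAC1 and HDAC2 were lower with both drugs, as were 58.1 and 59.4% of the tiles. Among tiles with an untreated peak of at least 2 kb, which resemble these loci more, the median factor was 0.784 for vorinostat and 0.896 for romidepsin. Of these tiles, 80.5 and 64.4% were lower by any amount, 28.6 and 18.7% by more than 1.5 times, and 2.72 and 6.33% higher by more than 1.5 times. The HDAC3 window lay above 87.6% of these tiles for vorinostat and above 84.1% for romidepsin. The HDAC2 window lay above 11.5% for vorinostat and above 56.4% for romidepsin, and HDAC1 above 23.3 and 40.7%. These ranks set windows of 62, 55 and 36 kb, flanks included, against tiles of 50 kb. They do not describe the genes alone.

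**Figure D2:**
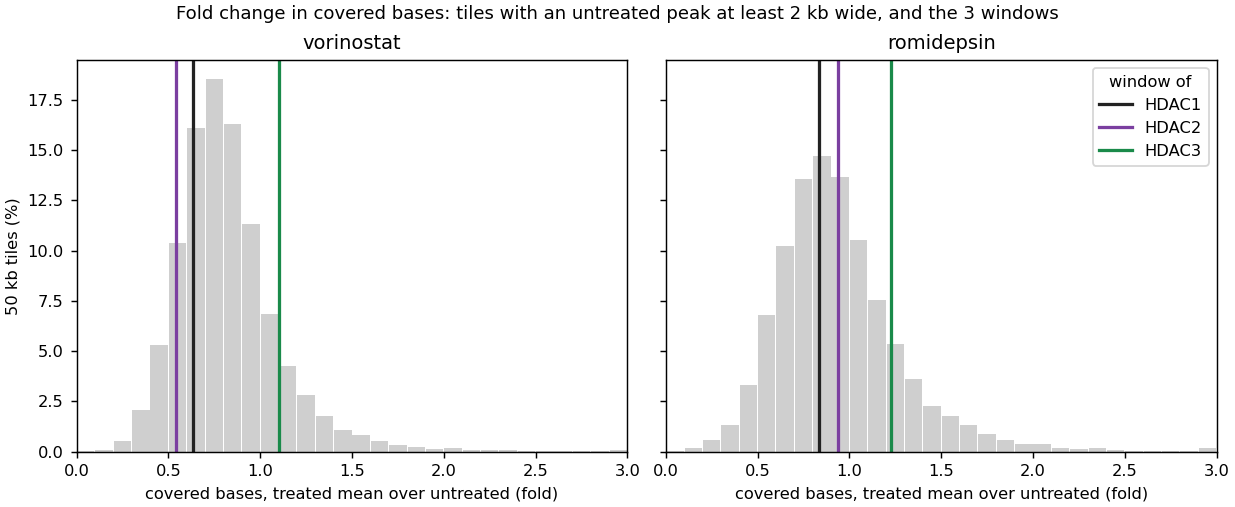
Fold change in covered bases, treated mean over untreated, for the 50 kb tiles that hold an untreated peak of at least 2 kb (grey bars, per cent of 16308 tiles, values over 3 in the last bar) and for the 3 windows (lines). HDAC3 stood at 1.10 and 1.23, to the right of the peak of both distributions, and HDAC2 at 0.541 for vorinostat, on its left.

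These factors depended on how peaks were joined. With the joining described above, vorinostat gave 0.839 at HDAC1, 0.688 at HDAC2 and 1.36 at HDAC3, so neither fall passed 1.5 times. Romidepsin gave 1.15, 1.16 and 1.54, so its direction turned at HDAC1 and HDAC2, and its rise at HDAC3 passed 1.5 times. The share of tiles past 1.5 times was not computed with joined peaks.

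Where the 5′ end peaks had been, treated lists held rows of separate pieces. The HDAC1 peak was replaced by 6 and 5 pieces after vorinostat, which kept 49.8 and 41.9% of its bases, and by 5 and 7 after romidepsin, which kept 76.1 and 61.6%. The HDAC2 peak fell into 8 and 7 pieces after vorinostat, keeping 61.9 and 59.6%, and into 8 and 6 after romidepsin, keeping 69.1 and 74.7%. The HDAC3 peak fell into 4 and 4 pieces after vorinostat, keeping 81.4 and 82.9%, and into 3 and 3 after romidepsin, keeping 85.0 and 84.9%. The HDAC3 peak was the widest of the 3 and had the fewest pieces and the most bases kept in all 4 lists as called. With joined peaks this order turned for romidepsin, where HDAC2 was in 1 piece with 99.7 and 99.4% kept and HDAC3 in 2 pieces with 92.0 and 91.5% kept.

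Counting every untreated peak of at least 2 kb in the windows, 8 of 8 were in at least 2 pieces in both lists of either drug. This was so for 84.6% of all such peaks after vorinostat and for 88.1% after romidepsin. Under 50% of the bases were kept, on average, in 3 of the 8 after vorinostat, against 35.1% of all such peaks, and in 1 of the 8 after romidepsin, against 30.2%. For all untreated peaks of at least 5 kb, the size of those at the 5′ ends, the shares were 98.1 and 98.8% in pieces and 8.99 and 7.73% with under 50% kept. Of the 3 peaks at the 5′ ends, that of HDAC1 after vorinostat was under 50%, at 45.8%. All 4 of these cases lay at HDAC1, and the lowest share was that of the peak from 12572 to 16445 bp inside the gene, 45.4 and 23.2% for vorinostat and 47.2 and 40.9% for romidepsin, a peak singled out for these values. With joined peaks, the 5′ end peaks of the 3 genes were left in 1 or 2 pieces in each treated list.

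**Figure D3:**
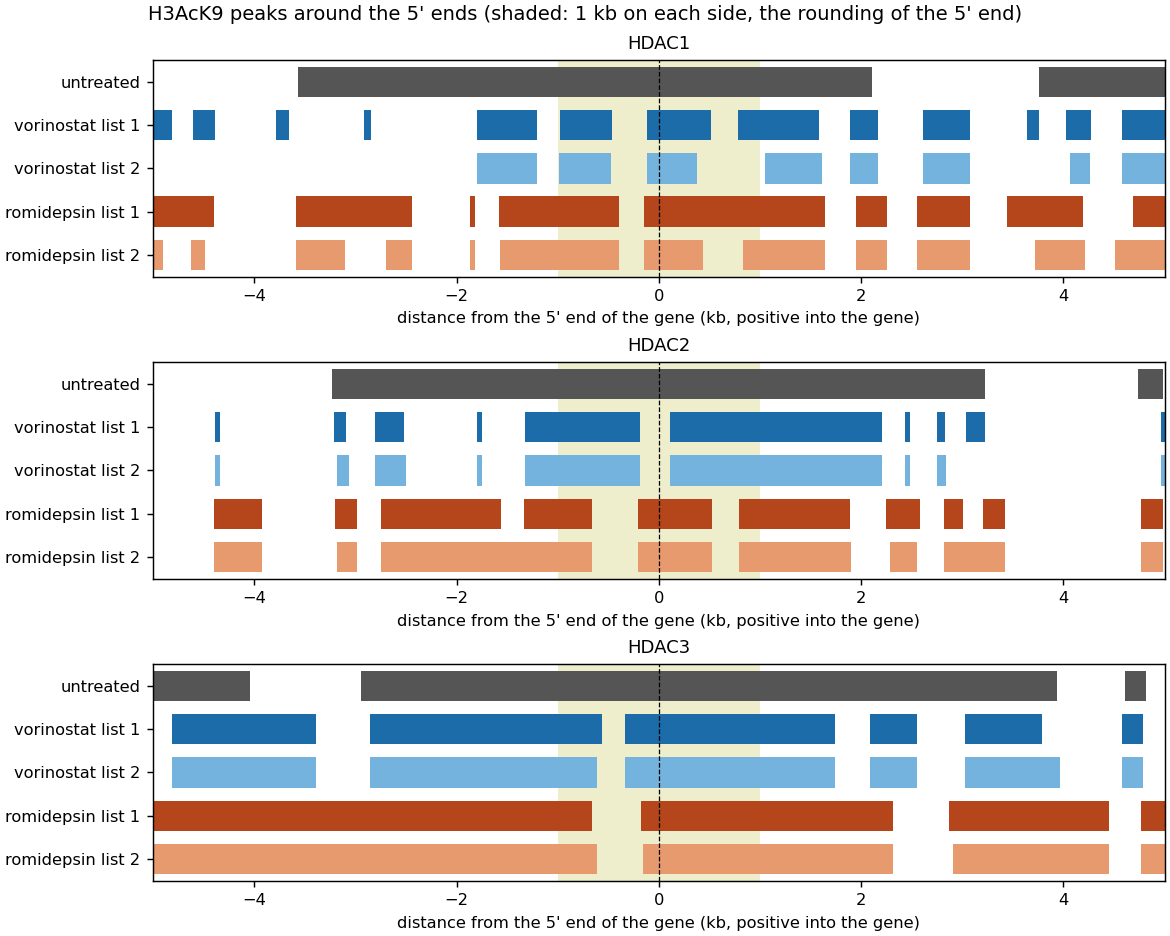
Peaks within 5 kb of the 5′ ends of HDAC1, HDAC2 and HDAC3 in the 5 lists, by distance from the 5′ end in kb; the shaded band is the 1 kb on either side within which the 5′ end lies. Untreated cells had 1 unbroken peak across each 5′ end, and every treated list had at least 1 gap inside the band. The untreated list holds no gap under 509 bp anywhere. Only a gap of 671 bp at HDAC1, in the second vorinostat list, was wider than that inside the band. The narrower gaps are therefore not shown to come with treatment.

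Within 2 kb on either side of the 5′ end, untreated peaks covered all 4000 bases at each gene. Vorinostat left 2653 and 2270 covered bases at HDAC1, 3080 and 3080 at HDAC2, and 3506 and 3463 at HDAC3. Romidepsin left 3084 and 2670 at HDAC1, 2950 and 3184 at HDAC2, and 3517 and 3548 at HDAC3. With every base covered before treatment, the treated values could not be higher. The order HDAC3 over HDAC2 over HDAC1 held in all lists except the first romidepsin list, where HDAC1 exceeded HDAC2. The order for romidepsin changed with the zone. Within 1 kb its factors were 0.780 at HDAC1, 0.766 at HDAC3 and 0.642 at HDAC2, and within 5 kb they were 1.08 at HDAC3, 0.872 at HDAC1 and 0.826 at HDAC2. With joined peaks, the factors within 2 kb for vorinostat and romidepsin were 0.866 and 0.967 at HDAC1, and 0.9505 and 1.00 at HDAC2. At HDAC3 both were 1.00. Less was thus lost with joined peaks, and HDAC2 tied with HDAC3 for romidepsin.

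The gaps nearest the 5′ end were at similar places in both lists of a drug. At HDAC3, the gap ran from -567 to -334 and from -610 to -334 bp in the vorinostat lists, and from -661 to -178 and from -610 to -158 bp in the romidepsin lists. At HDAC2, it ran from -185 to 108 bp in both vorinostat lists and from -662 to -208 bp in both romidepsin lists, so the places of the drugs did not overlap. At HDAC1, a gap ended at -113 bp in both vorinostat lists, where it was 352 and 364 bp wide, and at -149 bp in both romidepsin lists, where it was 242 bp wide. All the gaps named here were under 509 bp, the smallest gap anywhere in the untreated list, so they are not shown to come with treatment. With the 5′ ends known only to 1 kb, it is not known whether these gaps lie on the promoter sequences printed above. The 300 bases were covered entirely at between 19.9 and 73.4% of the possible positions in a treated list.

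Over the gene of HDAC1, between the flanks, covered bases fell from 20440 to 14380 and 12838 with vorinostat, a factor of 0.666, and to 19568 and 16220 with romidepsin, a factor of 0.875. With the gene cut into 3 equal stretches, the 5′ stretch was lower with both drugs, at 6720 and 6426 bases for vorinostat and 6923 and 7120 for romidepsin against 10532. In the middle stretch, vorinostat left 3241 and 1779 of 4905 bases, and romidepsin gave 6809 and 4624, values on both sides of the untreated one. The 3′ stretch changed less, from 5003 bases to 4419 and 4633, and to 5836 and 4476. In the downstream flank, where the untreated peak of 11085 bp had covered all 10000 bases, 6076 and 6765 were left after vorinostat and 7731 and 7696 after romidepsin.

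Over the gene of HDAC2, covered bases fell from 5908 to 3076 and 3194 after vorinostat, a factor of 0.531. After romidepsin they were 5416 and 5874, a factor of 0.955. In the middle stretch, untreated cells had 526 covered bases, vorinostat lists 148 and 0, and romidepsin lists 1382 and 1500, held in 5 peaks each. In the 3′ stretch the values were 1368, then 75 and 290, and 648 and 840. Of the 10 untreated peaks of the HDAC2 window, 6 kept no base in either vorinostat list and 4 none in either romidepsin list. At HDAC1 this was so for 0 of 16 with either drug, and at HDAC3 for 2 and 0 of 12. Over the 3 windows, 8 of 38 untreated peaks were without any vorinostat peak and 4 of 38 without any romidepsin peak, against 35.3 and 33.2% of all untreated peaks. Median widths of untreated peaks were 1155, 507.5 and 589.5 bp at HDAC1, HDAC2 and HDAC3, against 537 bp in the whole list. Peaks of like width were not compared, so the lower share is not shown to be particular to these loci.

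Over the gene of HDAC3, the drugs went opposite ways. Covered bases were 7565 before treatment, 6536 and 6805 with vorinostat, and 10619 and 10174 with romidepsin, factors of 0.882 and 1.37. The 3′ stretch, where the noncoding ENSG00000228737 also lies in hg38, rose with both drugs. It went from 1069 bases to 1644 and 1655 after vorinostat and to 3836 and 3508 after romidepsin. In the upstream flank, on the side of RELL2 and FCHSD1, covered bases rose from 4543 to 7099 and 5996 after vorinostat and to 7305 and 7301 after romidepsin. The widest of the 6 romidepsin peaks there ran from -5341 to -661 bp in the first list and to -610 bp in the second, and was 4680 and 4731 bp wide. In hg38, RELL2 runs from -101 to -4215 bp and FCHSD1, on the other strand, from -14569 to -2453 bp. In the downstream flank, toward DIAPH1, covered bases rose from 6490 to 7182 and 7430 after vorinostat and fell to 5449 and 4730 after romidepsin.

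**Figure D4:**
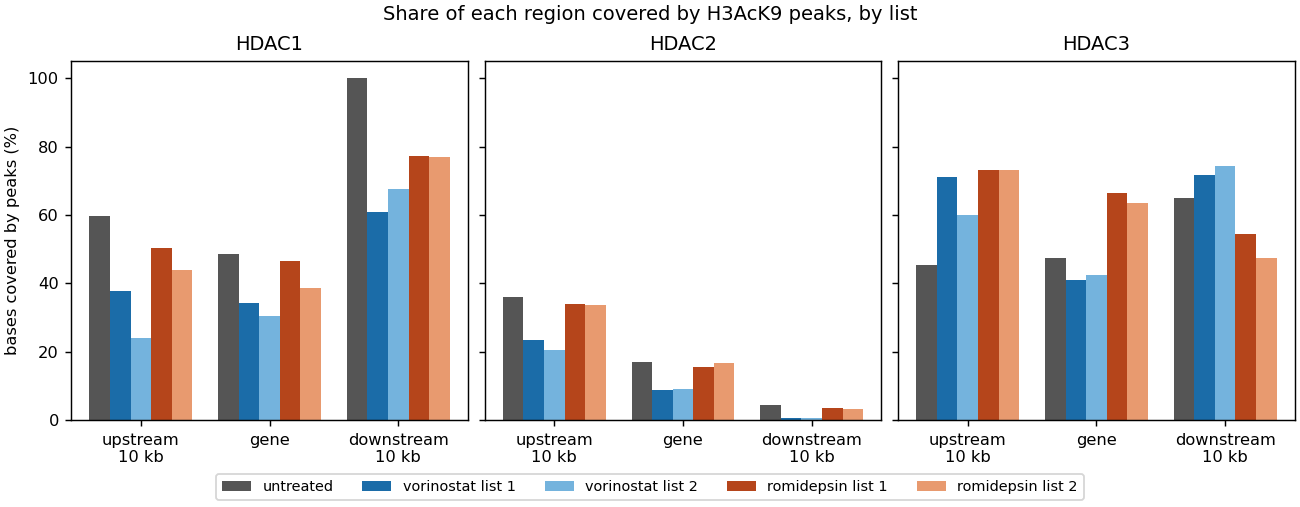
Per cent of the bases covered by peaks in the upstream flank, the gene and the downstream flank of HDAC1, HDAC2 and HDAC3, 1 bar per list. In every group of HDAC1 and HDAC2 the untreated bar is the highest, and over the gene of HDAC3 the romidepsin bars stand at 66.4 and 63.6% against 47.3% in untreated cells.

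Gains and losses took place side by side in each window. They were not counted over the genome, so they are not shown to be particular to these loci. At HDAC1, the vorinostat lists lost 18121 and 18161 of the 36416 untreated bases and gained 5927 and 3738 elsewhere, and the romidepsin lists lost 14697 and 15547 and gained 10607 and 7436. At HDAC2, vorinostat lists lost 5860 and 5992 of 9966 bases and gained 1379 and 1318, and romidepsin lists lost 4475 and 4067 and gained 3698 and 3657. At HDAC3, vorinostat lists lost 5375 and 4635 of 18598 bases and gained 7594 and 6268, and romidepsin lists lost 4919 and 5612 and gained 9694 and 9219. With peaks as called, only in the HDAC3 window did gains exceed losses, in all 4 lists, which restates the covered totals given above. Over the gene of HDAC3 alone, the vorinostat lists lost 3511 and 3232 bases and gained 2482 and 2472.

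**Figure D5:**
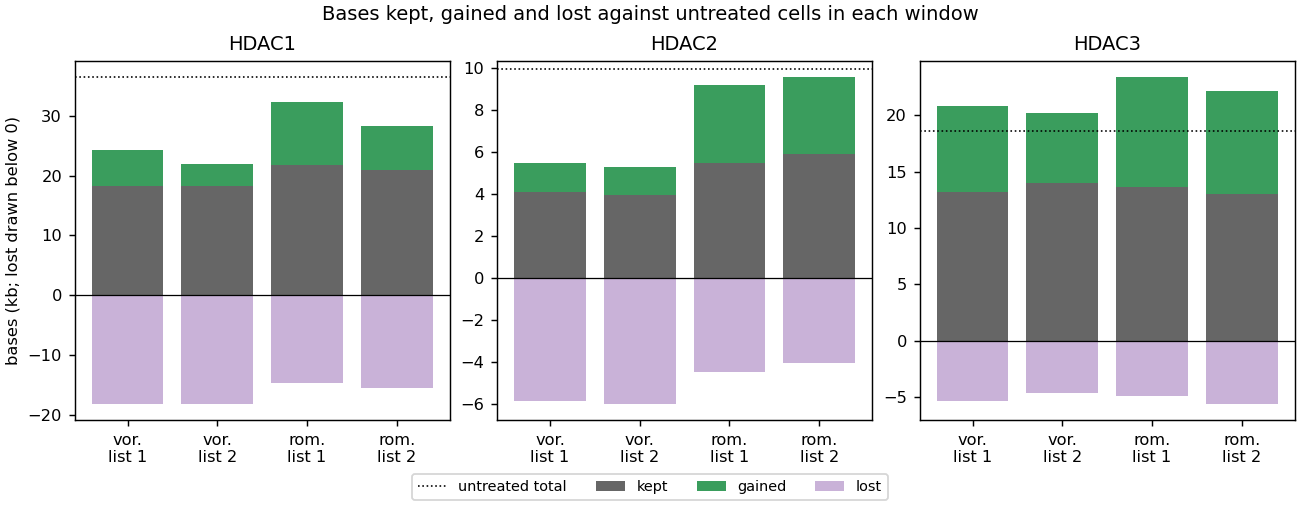
Bases of each window, in kb, that a treated list shares with untreated cells (kept), covers in addition (gained) or no longer covers (lost, drawn below 0); the dotted line is the untreated total. Kept and gained bases together stay below the line at HDAC1 and HDAC2 and rise above it at HDAC3. Each panel has its own scale.

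A core of bases was covered in all 5 lists, which was likewise not counted over the genome. It came to 10361 bases at HDAC1, 2732 at HDAC2 and 9743 at HDAC3, which is 28.5, 27.4 and 52.4% of the untreated coverage. At HDAC2 and HDAC3 the longest stretches of it lay by the 5′ end, from 789 to 1894 bp at HDAC2, and from -2859 to -661 and from -158 to 1739 bp at HDAC3. At HDAC1 the longest stretch, 1514 bp, lay in the downstream flank from 45314 to 46828 bp. Bases covered in all 4 treated lists but not in untreated cells numbered 1521 at HDAC1, 158 at HDAC2 and 3410 at HDAC3. The longest such stretch, 877 bp, lay near the 3′ end of HDAC3, from 14278 to 15155 bp.

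Over the 3 windows together, fewer treated peaks lay outside untreated peaks than in the lists as a whole. Untreated peaks covered 58.7, 18.1 and 51.7% of the HDAC1, HDAC2 and HDAC3 windows, against a tile median of 4.84%, which leaves less room outside them. Tiles of like coverage were not compared, so the lower share is not shown to be particular to these loci. Of the vorinostat peaks, 30.8 and 29.2% touched no untreated peak, against 62.8 and 61.2% of all peaks on the 20 chromosomes that every list covers. For romidepsin the shares were 35.7 and 39.0%, against 61.0 and 59.7%. Among the genes, HDAC2 had the highest share in each list, 47.4 and 52.4% for vorinostat, and 61.3 and 63.3% for romidepsin. The romidepsin shares are close to those of all romidepsin peaks. Such peaks at HDAC2 had median widths between 74 and 128 bp.

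Compared directly, the romidepsin lists covered more bases than the vorinostat lists in all 3 windows, by factors of 1.31 at HDAC1, 1.74 at HDAC2 and 1.11 at HDAC3, and in each case both lists of romidepsin lay above both of vorinostat. The same held for 35.8% of the tiles with an untreated peak and for 57.4% of those with one of at least 2 kb. At the 5′ ends the ratio was 1.17, 0.996 and 1.01. Of all bases covered by either of 2 lists, 69.5 to 92.7% were covered by both when the lists came from the same sample, and 25.8 to 52.9% when 1 was from vorinostat and 1 from romidepsin. The share between drugs was lowest at HDAC2, 25.8 to 27.2%, where lists of the same sample shared 75.1 and 87.4%. Over the 20 chromosomes, the share was 28.9 to 30.3% between drugs and 65.8 and 69.4% within a sample. With 1 sample of each drug, a difference between the drugs and one between 2 samples of the same drug cannot be told apart.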

How the data were processed

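H3AcK9 was profiled by ChIP-seq in 3 samples, and 3 input samples had no list and were not used here. Per the paper's methods, chromatin was digested with micrococcal nuclease and Drosophila spike-in chromatin was added. Its reporting summary names MACS 1.4.2 for peak calling and SOAPaligner, SOAP2 or BWA for alignment. For sequencing depth that summary gives averages only. How the spike-in and the inputs were used is not given in the sources used here, nor is the depth of each list, so the precision of a single peak is unknown. The deposited lists give chromosome, start, end and a score whose scale the authors do not state. It served for filtering only. The labels name hg38, but 384 peaks end beyond the hg38 length of chromosome 1 and contigs carry hg19 names, so positions are hg19.

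Overlaps (at least 1 shared bp) and covered bases were computed with Python 3.11.15, NumPy 2.4.6 and pandas 2.3.3, drawn with Matplotlib 3.10.9, tested on simulated data (60 of 60 quantities recovered) and compared with bedtools 2.31.1 (15 of 15 counts equal). Tiles of 50 kb covered the 20 chromosomes with peaks in every list. A factor past 1.5 was called. No test was run with 1 sample per condition. The members and measures were chosen with earlier results of these data known. The genes named are the 3 members and annotated neighbours in their flanks. Peaks described are the widest of a window and those at the 5′ ends, and any other position given was picked after its values were seen. Partner subunits of the HDAC complexes were not analysed, since no hg19 annotation was used here. Alternatives were each list alone, filters on score and width, merging of nearby peaks, other flanks and zones, and other tiles.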

Additional observations from a re-analysis of the deposited data

Results flagged for a closer look

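The regions compared at each gene were the window, both flanks, the gene, its 3 stretches and the zone around the 5′ end. By covered bases, both vorinostat lists moved one way against untreated cells and both romidepsin lists the other way in 4 of them. These regions overlap, and the 5′ stretch of HDAC3 lies inside its gene. How often the drugs part in this way over the genome was not computed. Each drug was 1 sample, and the difference between them was not tested. Covered bases over the gene of HDAC3 were 0.882 times the untreated value for vorinostat and 1.37 times for romidepsin. In the 5′ stretch, when the gene is cut into 3, the factors were 0.791 and 1.07. In the downstream flank of HDAC3, toward DIAPH1, the order was the other way round, with 1.13 for vorinostat and 0.784 for romidepsin. In the middle stretch of HDAC2 the factors were 0.141 and 2.74, from 526 untreated bases.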

How the results depend on the processing

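No paired analysis was possible because each condition had 1 sample. Of 231 values under the alternatives, 194 stayed within 1.5 times of those reported, 25 moved further and 12 called values turned direction. Covered bases of the windows kept their direction in 53 of 66. Each list alone, other flanks and other zones turned no called value, and among them the uncalled vorinostat factor of the HDAC3 window fell below 1 with each other flank. Of these alternatives, only the HDAC3 gene without flanks moved a value by more than 1.5 times (romidepsin peak number 1.39). In what follows, values are given for vorinostat and then romidepsin, over untreated.

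With peaks merged across gaps of up to 1000 bp, peak numbers changed by factors of 1.00 and 0.750 at HDAC1, 1.25 and 1.69 at HDAC2, and 0.643 and 0.571 at HDAC3, covered bases by 1.08 and 1.31 at HDAC1 and 0.908 and 1.62 at HDAC2, and those at the 5′ end of HDAC1 by 0.950 after vorinostat. Merging across 300 bp gave 1.46 for the vorinostat peak number at HDAC3. Joining to the resolution of the untreated list, chosen after seeing the data, gave 1.47 and 1.38, 0.70 and 1.20, and 0.958 and 0.833 for peak number at HDAC1, HDAC2 and HDAC3. Peaks of at least 200 bp gave 0.500 and 1.67 for peak number at HDAC2.

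When only scores from 1 up were kept, peak numbers changed by 1.88 and 2.13 (HDAC1), 8.0 and 11.0 (HDAC2), and 0.364 and 0.591 (HDAC3), covered bases by 6.39 and 4.02 at HDAC2 and 0.168 and 0.209 at HDAC3, and those at the 5′ end of HDAC1 by 0.149 and 0.379. Covered bases at HDAC2 were then 0.629 times as many after romidepsin as after vorinostat. This filter left 1 of 10 untreated peaks at HDAC2, none of them at its 5′ end, and 11 of 12 at HDAC3. At the 5′ ends of HDAC2 and HDAC3 it yielded no factor above 0 with either drug, and these cases are not among the 231 values. It kept 46.2% of the HDAC3 peaks of the first romidepsin list and 3.57% of those of the second, which come from the same sample.

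Among tiles with an untreated peak of at least 2 kb, 18.7% fell by over 1.5 times in covered bases after romidepsin. Of untreated peaks of at least 5 kb, 8.99% kept under 50% of their bases after vorinostat and 7.73% after romidepsin. Depth per list is unknown, so a base outside a peak is not shown to lack acetylation.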
